A study of Mus musculus with 15 samples.

Results

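The miRNAs described here are the late-numbered entries of the mouse catalogue, mir-5000 to mir-8999, which were named last and include many mirtrons. A row of the deposited counts holds the reads of 1 arm (5p or 3p) of 1 precursor, and a row was taken when its sum over the 15 libraries exceeded 10 reads. Of the 708 rows in this range of numbers, 168 had more than 10 reads, 288 had 1 to 10 and the rest were at 0 in all libraries. The rule left out mir-5119 and mir-7688, which gave 1 of these rows each, so that 166 rows from 150 precursors remained out of 1836 rows in all, and 481 other rows also passed 10 reads. The read total chose the rows, and their levels are therefore given as a description. Since mir-5119 and mir-7688 were left out with their differences between groups already known, the counts of called rows below are partly set by the rule.

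MiRNA was sequenced from left ventricles (LV) of 15 mice, 5 in each of 3 groups, with 1 library per mouse. The wt mice received no homoarginine, the AGAT-/- mice lacked arginine:glycine amidinotransferase (AGAT, gene Gatm), the enzyme that makes homoarginine and the precursor of creatine, and the AGAT-/-hArg mice lacked it as well and received homoarginine for 4 weeks from implanted osmotic pumps. All mice were littermates from heterozygous breeding on a C57BL/6J background, and the deletion is not limited to the heart. Ages are not given in the sources used here. By the labels, mice without supplementation were sequenced on lane 8 and AGAT-/-hArg mice on lane 2; supplementation and lane cannot be told apart. Gatm gives no miRNA, and the genotype could not be checked in these counts.

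Most miRNAs are cut from a long transcript by Drosha in the nucleus and trimmed by Dicer in the cytoplasm. Mirtrons skip the first step: a short intron is spliced out of an mRNA precursor, its lariat is opened, and the folded intron goes straight to Dicer. The ends of such a hairpin are splice sites, and so its 5p arm begins with GU and its 3p arm ends with AG, the letters at which introns start and stop. In a 5′-tailed mirtron only the 3′ end of the hairpin is a splice site, and the intron upstream of it is removed by a nuclease.

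Positions could be assigned to 149 of the 150 precursors on GRCm38, 126 from the RefSeq hairpin and 23 from the GENCODE gene. Both ends of the hairpin lay at the ends of an intron on the same strand (within 3 bases) for 6 precursors, and only the 3′ end did for 74. Only the 5′ end did for 2 precursors, 40 lay elsewhere in an intron, 12 overlapped an exon and 15 were intergenic. Thus 82 of 149 (55.0%) had at least 1 hairpin end at an intron end, compared with 16 of 345 (4.64%) of the located precursors of all other rows above 10 reads. In total, 122 of 149 (81.9%) lay in introns, compared with 214 of 345 (62.0%). Host introns were short, with a median of 829.5 bases against 13092.5 bases for the other rows. RefSeq gave a mature sequence for 142 of the 166 rows. Of the 3p sequences, 58 of 103 (56.3%) ended with AG, compared with 21 of 178 (11.8%) of the other rows, and their median share of pyrimidines (C and U) was 68.2% against 53.5%.

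**Figure D1:**
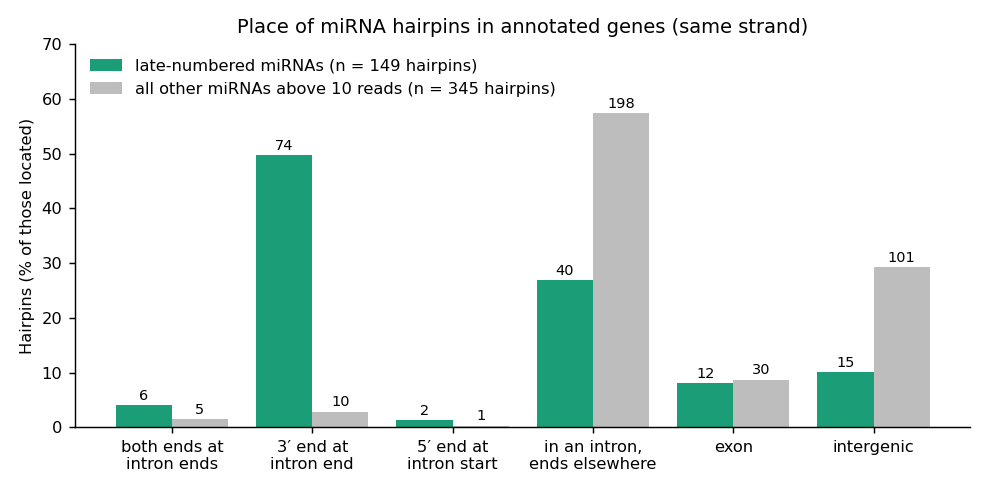
Place of the hairpins in annotated genes: the vertical axis is the percent of located hairpins, the numbers above the bars are hairpins, green bars are the 149 late-numbered precursors and grey bars the 345 others. Hairpins that share only their 3′ end with an intron make up 74 of the green and 10 of the grey set.

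The sequences of the hairpins with both ends at intron ends, chosen by that position, show this geometry. The 2 with the most reads are printed as RNA (RefSeq, GRCm38.p6), 5′ to 3′, with the GU and AG at the intron ends in capitals. Mir-7068 fills the whole 74-base intron of Cherp at chr8:72470016-72470089 (minus strand), and mir-6944 the whole 96-base intron of Dbn1, the gene of the actin-binding protein drebrin, at chr13:55477681-55477776 (minus strand).
mir-7068 hairpin: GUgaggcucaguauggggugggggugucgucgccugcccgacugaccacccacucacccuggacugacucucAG
mir-6944 hairpin: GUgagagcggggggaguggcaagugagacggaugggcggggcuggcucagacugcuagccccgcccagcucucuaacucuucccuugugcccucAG

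Hairpins that share only their 3′ end with an intron are shown for comparison, because they are the most frequent kind here. In both of the following hairpins the AG in capitals is the end of the intron, and the start lies inside the intron. Mir-6911 is at chr10:80278164-80278232 (plus strand) in a 550-base intron of Dazap1, and mir-7043 at chr6:116645978-116646047 (minus strand) in a 1589-base intron of Rassf4.
mir-6911 hairpin: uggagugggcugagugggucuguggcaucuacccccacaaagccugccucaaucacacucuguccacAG
mir-7043 hairpin: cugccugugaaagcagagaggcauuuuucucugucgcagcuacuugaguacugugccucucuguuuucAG
Of the 5 hairpins with both ends at intron ends that RefSeq lists, all 5 began with GU and all 5 ended with AG. Of the 62 listed with only the 3′ end at an intron end, 60 ended with AG and 4 began with GU. At the ends that lie at an intron end, these letters follow from how the hairpins were classed and are no separate evidence.

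Mature sequences are given next for the 10 of the 12 rows with the most reads that have one here, and for mir-7018-3p, which shares a seed with the first. Capitals mark the seed (bases 2 to 8), by which a miRNA pairs with its targets, and a final AG where a 3p sequence ends with it.
mir-7068-3p: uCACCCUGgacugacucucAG
mir-7018-3p: uCACCCUGcugccggcuugcAG
mir-6944-3p: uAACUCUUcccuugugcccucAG
mir-7015-3p: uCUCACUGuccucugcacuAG
mir-7046-3p: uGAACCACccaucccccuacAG
mir-6911-3p: uCAAUCACacucuguccacAG
mir-7043-3p: aCUGUGCCucucuguuuucAG
mir-6412-3p: uCGAAACCauccucagcuacua
mir-8114-3p: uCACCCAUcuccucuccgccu
mir-5709-5p: aUACGCACacuuaagacuuuag
mir-6516-5p: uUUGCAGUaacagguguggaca
Mir-7068-3p and mir-7018-3p share the seed CACCCUG, and both hairpins fill an intron, that of mir-7018 in Hspg2 (perlecan, a heparan sulfate proteoglycan of basement membranes) at chr4:137538286-137538370 on the plus strand. Mir-7018-3p had only 67 reads. Outside the late-numbered set, the seed of mir-6932-3p (CUGUUCU) is also that of mir-26a-2-3p, that of mir-7006-3p (UUCUGAC) that of mir-1966-3p, and that of mir-6966-5p (UCGGGGA) that of mir-542-5p. Seeds are also shared by mir-6240-5p and mir-330-3p (CAAAGCA), and by mir-6985-3p and mir-673-5p (UCACAGC). The same holds for mir-7670-3p and mir-211-5p (UCCCUUU), and for mir-7661-3p and mir-3077-3p (UGACUCC). Rows without a sequence here include mir-5099-3p, mir-7224-3p and mir-7060-3p.

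The total per library was 365634 to 570492 reads. A floor of 3 reads equals 5.26 to 8.20 CPM, that is, reads scaled to a common depth, and covers counting error only. The 3 most abundant rows of the table took between 71.5% and 73.7% of each library. Heart muscle miRNAs were present, with 6290 reads on mir-499-5p and 673 on mir-208a-5p, while mir-122, the miRNA of hepatocytes, had 5 reads on its 3p row and its 5p row was listed at 0. A red cell miRNA, mir-144-5p, was present as well, with 20596 reads (1000 to 1881 per library). The smooth muscle row mir-143-5p had 106 reads and the white cell row mir-223-5p 95. Their part in the levels below was not tested. The other red cell rows, mir-144-3p and both arms of mir-451a and mir-451b, are listed at 0. So are mir-208a-3p, mir-208b-3p, mir-143-3p and mir-223-3p. Mir-1a-1-3p, mir-133a-1-3p and mir-877-5p, which are the usual major arms of their precursors, are listed at 0. A row at 0 is therefore given only as listed at 0, and was not read as absence of that arm.

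The 166 rows held 33008 reads, 0.484% of all reads, and their share per library was 0.465% ± 0.0249 in wt, 0.478% ± 0.0167 in AGAT-/- and 0.506% ± 0.0289 in AGAT-/-hArg mice (mean ± SD, n = 5 each). The ranges of the 3 groups overlapped, from 0.438% to 0.503%, from 0.453% to 0.494% and from 0.460% to 0.538%. Reads were concentrated on few rows: mir-7068-3p took 25.7% of them, the 3 highest rows 52.0% and the 12 highest 71.4%. The median row had 29.5 reads over all 15 libraries, compared with 91 for the other rows above 10 reads, and 59 rows had reads in every library. Just inside the threshold, 13 rows had 11 or 12 reads, and 22 rows of the same range of numbers had 9 or 10 and were not taken.

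Mir-7068-3p was the most abundant late-numbered miRNA and rank 39 of the whole table, with 8498 reads. Its host gene Cherp encodes a nuclear protein of pre-mRNA processing and calcium homeostasis. Normalised by edgeR's TMM method, its levels in the 5 wt mice were 1395, 1434, 1340, 1412 and 1257 CPM. In the AGAT-/- mice they were 1466, 1042, 1253, 1315 and 1184 CPM, and in the AGAT-/-hArg mice 1261, 1098, 1008, 1144 and 1169 CPM. AGAT-/- mice spanned the whole wt range, and the highest AGAT-/-hArg mouse was level with the lowest wt mouse.

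Mir-5099-3p, which is intergenic (chr12:36816205-36816278, plus strand), followed at rank 45 with 6334 reads. Its mean levels were 875 ± 138 CPM in wt, 887 ± 80.8 in AGAT-/- and 990 ± 152 in AGAT-/-hArg mice (SD, n = 5 each). Mir-6412-3p, also intergenic (chr10:122648339-122648435, plus strand), had 2346 reads and rank 77. Its 5 wt mice had 313, 255, 323, 203 and 320 CPM, its AGAT-/- mice 316, 386, 389, 333 and 345 CPM, and its AGAT-/-hArg mice 414, 352, 440, 308 and 411 CPM. Thus 4 of 5 AGAT-/- and 4 of 5 AGAT-/-hArg mice were above all wt mice, and both groups overlapped with wt by 1 mouse.

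Mir-6944-3p, the second mirtron with both ends at intron ends, had 1082 reads and means of 157 ± 44.7 CPM in wt, 171 ± 51.2 in AGAT-/- and 146 ± 29.3 in AGAT-/-hArg mice. Other mirtrons of this kind were rare: mir-6958-3p (Dennd6b) had 71 reads, mir-7018-3p 67, mir-7060-3p (Fbrs) 21 and mir-7070-3p (Fbxw9) 19. The 6 together held 29.6% of the reads of the set, and 87.1% of these were on mir-7068-3p.

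Among the hairpins that share only their 3′ end with an intron, 78 rows held 20.5% of the reads. The 4 with the most reads were mir-7015-3p in Smap2 (712 reads), mir-7046-3p in Rabac1 (547), mir-6911-3p in Dazap1 (522) and mir-7043-3p in Rassf4 (457). Mir-7015-3p ranged from 93.7 to 144 CPM in wt (median 101), from 82.1 to 128 in AGAT-/- (median 97.3) and from 65.9 to 128 in AGAT-/-hArg mice (median 108). Mir-7046-3p ranged from 49.3 to 112 CPM in wt, from 64.9 to 87.6 in AGAT-/- and from 64.1 to 122 in AGAT-/-hArg mice. For both, the 3 groups overlapped. Mir-6911-3p had means of 69.1 ± 13.9, 79.6 ± 12.7 and 79.4 ± 6.66 CPM in wt, AGAT-/- and AGAT-/-hArg mice, and mir-7043-3p 65.1 ± 5.54, 67.0 ± 8.23 and 67.6 ± 6.70 CPM (SD, n = 5 each). Mir-7043-3p was thus nearly level across the groups.

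The remaining rows of the 12 highest came from other positions. Mir-8114-3p had 1010 reads and lies in an exon of Glul, the glutamine synthetase gene (chr1:153899926-153900036, plus strand), whose mRNA holds the same sequence. Its means were 163 ± 22.9 CPM in wt, 141 ± 20.4 in AGAT-/- and 137 ± 13.4 in AGAT-/-hArg mice. Mir-7224-3p, deep in a 182125-base intron of B3galt1, had 908 reads and means of 112 ± 34.1, 134 ± 20.2 and 151 ± 24.1 CPM. Mir-5709-5p, in an 84976-base intron of the receptor tyrosine phosphatase gene Ptprm, had 761 reads and means of 101 ± 15.1, 119 ± 11.6 and 116 ± 14.2 CPM. Mir-6516-5p had 396 reads and overlaps a scaRNA (Gm26083) in an intron of the noncoding RNA gene Snhg20, both of which hold the same sequence. Its means were 68.0 ± 6.10, 53.2 ± 13.5 and 50.9 ± 20.7 CPM, and 4 of 5 AGAT-/- and 3 of 5 AGAT-/-hArg mice were below all wt mice. In all, 29 of 142 mature sequences also occur in another annotated transcript, most often an exon or retained intron of the host.

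**Figure D2:**
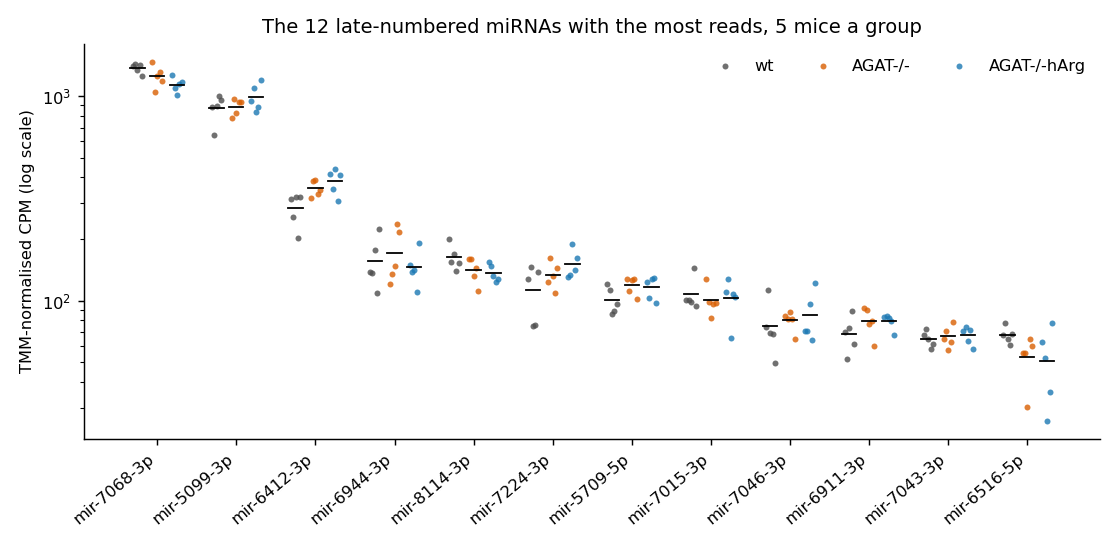
Levels of the 12 late-numbered miRNAs with the most reads: each point is 1 mouse (5 a group), the vertical axis is TMM-normalised CPM on a log scale, and black lines are group means. Mir-7068-3p and mir-5099-3p stand above the rest, between 644 and 1466 CPM, and the groups overlap for each of the 12.

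The spread between mice was compared with the spread that counting alone gives. For the 30 rows with at least 150 reads, the coefficient of variation within groups was a median of 1.23 times the counting value. It was 2.82 times for mir-5099-3p, 2.26 times for mir-6944-3p, 2.18 times for mir-7068-3p and 2.17 times for mir-6538-5p. Thus these 4 rows varied between mice by over 2 times the counting value, whereas mir-8111-3p had a ratio of 0.405. Mir-6538-5p, whose mature sequence is 94.7% G and C, ranged from 3 to 29 reads per library (coefficient of variation 58.6%).

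Arm use was the next measure, since a hairpin that ends at the 3′ splice site places its 3p arm next to it. The 3p arm had more reads than the 5p arm for 109 of 150 precursors (72.7%) and the 5p arm for 41, compared with 57.3% of the 372 other precursors with a row above 10 reads. At least 90% of the reads lay on 1 arm for 109 precursors, and 22 precursors lay between 20% and 80%. The other arm was listed at 0 for 66 precursors (44.0%), compared with 48.9% of the others. Such rows were not read as absence of an arm, and so the counts of dominant arms in this paragraph rest partly on them. The share of 3p reads, pooled within a class, was 99.9% for the 6 precursors with both ends at intron ends. It was 90.3% for the 74 with only the 3′ end there, and 60.3% for the 40 elsewhere in introns. Medians over single precursors lay closer together, at 99.3%, 96.4% and 84.0%. Intergenic hairpins had a pooled share of 97.0% (median 86.7%) and exonic ones 74.9% (median 29.0%). The pooled intergenic share rests mostly on mir-5099 and mir-6412, with 6334 and 2346 of the 9793 reads of intergenic rows. Their 5p rows are listed at 0. By medians, a high 3p share was also seen in hairpins elsewhere in introns and in intergenic ones. All of the 6 and 60 of the 74 were dominated by the 3p arm, against 24 of the 40. Since the rule asks for more than 10 reads on an arm, these shares rest partly on how the rows were chosen.

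In the hairpins with both ends at intron ends, the 5p arm begins at the splice site. Mir-7068 had 8498 reads on its 3p arm and 3 on its 5p arm, and mir-6944 had 1082 on 3p with its 5p row listed at 0. The 5p sequences of these mirtrons are printed with the GU of the intron start in capitals.
mir-7068-5p: GUgaggcucaguauggggugg
mir-6944-5p: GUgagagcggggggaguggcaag
mir-6958-5p: GUgggagaagaggcugcugugg
mir-7018-5p: GUgagcagacagggaguggugggg
All 6 precursors with both ends at intron ends have such a 5p sequence starting with GU, which follows from their position at the intron start. None of these 5p arms had more than 4 reads in total, and of the 39 late-numbered 5p rows above 10 reads that have a sequence, 0 began with GU. Where the position of a 3p mature sequence in an intron was known, it ended within 3 bases of the intron's 3′ end for 62 of 82 rows (75.6%), compared with 14 of 96 other rows (14.6%). Both positions are annotated, and reads enter only through the choice of rows. The count is therefore not independent of the position classes above.

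The 41 precursors with more 5p reads included 7 with at least 50 reads and reads on both arms. Mir-7083 in Dock6 had 97 reads on 5p and 80 on 3p, although its hairpin ends at the 3′ end of the intron, and mir-7213 in Pdgfb (platelet-derived growth factor B) had 159 and 126. Mir-6990, in Esrra (a nuclear receptor of energy metabolism), had 117 on 5p and 29 on 3p, and the intergenic mir-7668 had 84 and 39. Mir-5709 with 761 and 29 reads, mir-6516 with 396 and 30 and mir-6901 with 70 and 6 had the largest shares of 5p reads among these 7. For the remaining precursors with at least 50 reads and reads on both arms, the 3p arm had the larger share, from 55.9% for mir-5615-2 upwards. Mir-5615-1 and mir-5615-2 have identical mature sequences, so that their reads cannot be told apart.

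**Figure D3:**
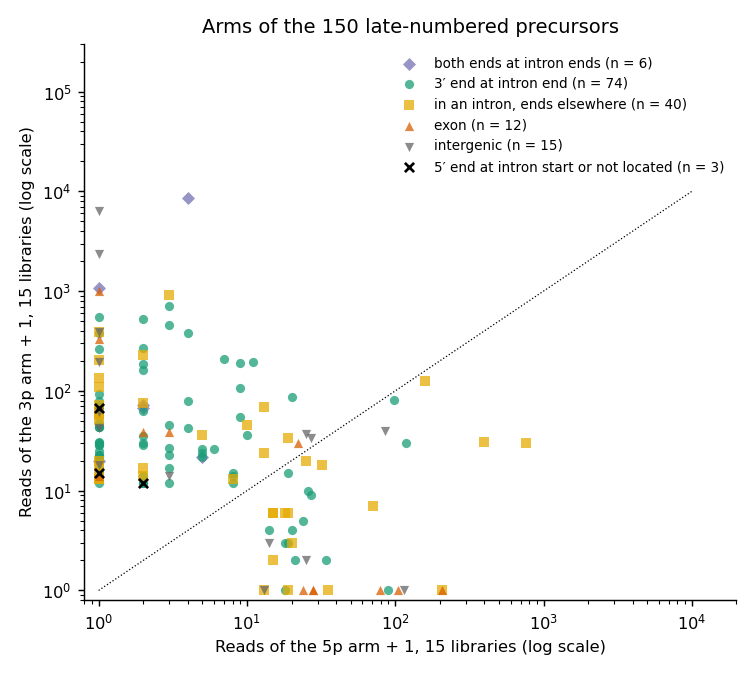
Reads of the 5p arm (horizontal) and the 3p arm (vertical) of the 150 precursors, summed over 15 libraries, plus 1, on log scales; colours and shapes mark the position of the hairpin and the dotted line marks equal reads. Hairpins ending at intron ends lie mostly above the line, and mir-7083 and mir-7213 lie close to it.

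Arm use was then compared between groups as the percent of a precursor's reads on the 5p arm per mouse, with an exact two-sided permutation test on 5 against 5 mice, whose smallest p is 0.00794. Of 29 precursors tested in each comparison, 0 passed after Benjamini-Hochberg adjustment, and the lowest adjusted p was 1 in each exact permutation test. This count says little, because 1 precursor at the smallest p would have an adjusted p of 0.230 in this exact test, and at least 5 would have to reach it together to pass. Precursors with only 1 read on the minor arm, such as mir-5621 and mir-6911, could not reach a low p in any case. The lowest unadjusted p was 0.206 for AGAT-/- against wt and for AGAT-/-hArg against AGAT-/-. For AGAT-/-hArg against wt it was 0.0476 by the exact permutation test (mir-6901, 5p share 100% in 5 of 5 AGAT-/-hArg mice and 84.4% ± 10.5 in wt mice), and this precursor had only 70 reads on its 5p and 6 on its 3p arm. Mir-7083 had 5p shares of 56.7% ± 17.8 in wt, 60.3% ± 24.1 in AGAT-/- and 45.7% ± 10.6 in AGAT-/-hArg mice, and mir-7213 of 56.7% ± 12.6, 57.3% ± 11.5 and 53.8% ± 6.73 (SD, n = 5 each). Both stayed near equal use of the arms in all groups.

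To ask whether loss of AGAT changed the levels, edgeR's quasi-likelihood test was run between AGAT-/- and wt mice on all rows with more than 10 reads in the 10 libraries. Of 134 late-numbered rows tested, 0 passed an FDR of at most 0.05 (Benjamini-Hochberg over all 562 rows), and DESeq2 also called 0. Over all rows, 12 of 562 (2.14%) passed by edgeR and 2.49% by DESeq2. DESeq2 was run with its default filter, which can leave rows with few reads without an FDR. Such rows counted as not called in each comparison. An unadjusted p below 0.05 was found for 7 of the 134 (5.22%), against 10.7% of all rows tested. The median log2 fold change was 0.07 for the late-numbered rows and -0.04 for all rows. Both left-out rows passed: the log2 fold change was -4.91 (SE 0.56, FDR 2.09e-05) for mir-5119-3p and 0.92 (SE 0.22, FDR 0.0240) for mir-7688-5p.

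In single rows, mir-6412-3p was higher in AGAT-/- than in wt mice by 0.31 on the log2 scale (SE 0.13, 95% interval 0.03 to 0.59, edgeR FDR 0.422), and the difference did not pass. Mir-7068-3p differed by -0.14 (95% interval -0.35 to 0.06, FDR 0.653) and mir-5099-3p by 0.01 (-0.23 to 0.25, FDR 0.978). Groups did not overlap for 1 of 89 rows with at least 20 reads (1.12%), against 3.75% of all rows. This row was mir-5116-5p, in an exon of Mmgt1. It had 3, 3, 4, 3 and 2 reads in the wt mice and 2, 1, 1, 1 and 0 in the AGAT-/- mice (FDR 0.289, the lowest of the set), and at such counts no fold is given.

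Homoarginine supplementation was examined by comparing AGAT-/-hArg with AGAT-/- mice. Of 143 late-numbered rows tested, edgeR and DESeq2 both called 0, and 4 of 580 rows (0.690%) passed by edgeR and 0.862% by DESeq2 over the whole table. An unadjusted p below 0.05 was found for 5 of the 143 (3.50%), against 7.41% of all rows. The median log2 fold change was -0.03, and 0.01 over all rows. The lowest FDR, 0.178, belonged to mir-7006-3p in Zfp512b, named here after its values were seen, which had 1 read over the 5 AGAT-/- libraries and 12 over the 5 AGAT-/-hArg libraries. It passed the read filter of this comparison only through its AGAT-/-hArg reads, and had 6 reads over the 5 wt libraries.

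Mir-6948-3p, in an intron of Acin1 (a splicing-associated protein of apoptotic chromatin condensation), was the row whose AGAT-/- and AGAT-/-hArg groups did not overlap, 1 of 87 rows (1.15%) against 2.92% of all rows. It had 9, 17, 5, 12 and 8 reads in the AGAT-/- mice (13.7 to 29.5 CPM) and 16, 25, 13, 15 and 22 in the AGAT-/-hArg mice (30.6 to 43.9 CPM). The difference of 0.76 on the log2 scale (SE 0.25, 95% interval 0.24 to 1.28) did not pass (edgeR FDR 0.232). In the wt mice, levels ran from 20.9 to 50.4 CPM and overlapped with both groups.

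Compared with wt mice, AGAT-/-hArg mice had 0 of 134 late-numbered rows called by edgeR and 1 by DESeq2, while 17 of 569 rows (2.99%) passed by edgeR and 3.16% by DESeq2 over the whole table. An unadjusted p below 0.05 was found for 7 of the 134 (5.22%), against 12.5% of all rows. The median log2 fold change was 0.06 for the set and 0.01 for all rows. This comparison shares its wt mice with that of AGAT-/- mice, and lane differs between its groups.

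The row called by DESeq2 was mir-7068-3p, which was lower in AGAT-/-hArg than in wt mice. Its log2 fold change was -0.27 by edgeR (SE 0.09, 95% interval -0.45 to -0.09, FDR 0.126) and -0.26 by DESeq2 (SE 0.08, FDR 0.0478). Mir-6412-3p was higher by 0.44 (SE 0.15, 95% interval 0.13 to 0.75, edgeR FDR 0.137), and passed only when all rows with at least 1 read were tested (FDR 0.0287), a setting in which 2.56% of all rows passed. For mir-7224-3p the difference was 0.42 (SE 0.20, FDR 0.371) and for mir-8114-3p -0.25 (SE 0.15, FDR 0.515), neither of which passed. Groups did not overlap for 2 of 89 rows (2.25%), against 4.52% of all rows. These were mir-5116-5p, with 2, 1, 1, 1 and 2 reads in the AGAT-/-hArg mice, and mir-6996-5p in Notch1 (the gene of a receptor of cell fate decisions). Mir-6996-5p had 9, 7, 7, 6 and 9 reads in the wt mice and 7, 6, 5, 4 and 6 in the AGAT-/-hArg mice, with levels of 14.7 to 22.2 and 9.86 to 14.6 CPM. Its log2 fold change was -0.58 (SE 0.31, FDR 0.510).

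**Figure D4:**
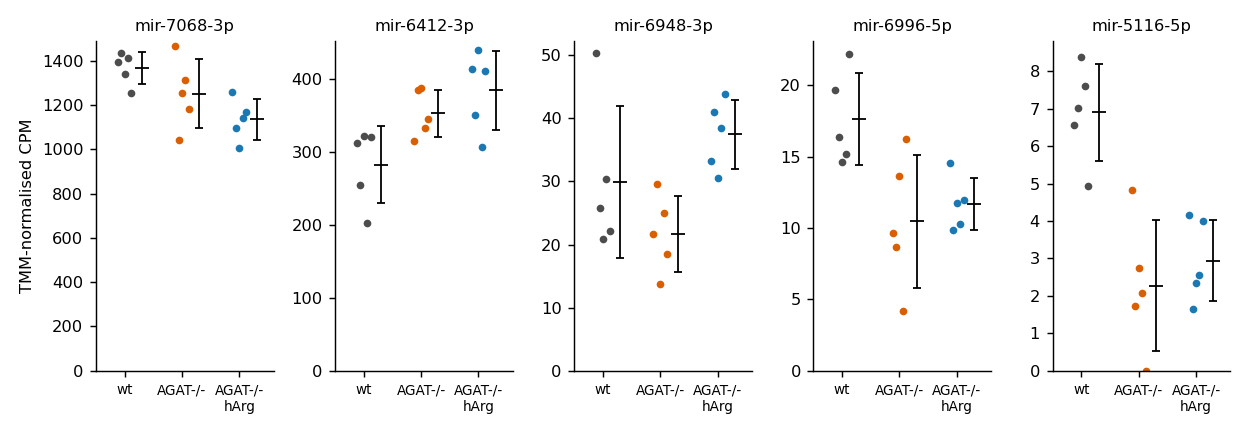
TMM-normalised CPM of the 5 rows named above, with 1 point per mouse and the mean ± SD (n = 5) beside the points; each vertical axis starts at 0 and has its own scale. In CPM, the AGAT-/-hArg mice are all below the wt mice for mir-6996-5p and mir-5116-5p and all above the AGAT-/- mice for mir-6948-3p. In raw reads these groups meet or overlap for each of these rows, which were named because their groups did not overlap in CPM.

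The size of change that these libraries could show depended on the reads. For the 30 late-numbered rows with a mean above 10 reads, log2 fold changes ran from -0.45 to 0.64 for AGAT-/- against wt, from -0.21 to 0.76 for AGAT-/-hArg against AGAT-/- and from -0.39 to 0.59 for AGAT-/-hArg against wt. The median half-width of their 95% intervals was 0.48, 0.44 and 0.47. Over all late-numbered rows tested the median half-width was 1.11, 1.19 and 1.14. A log2 fold change of 1 was thus smaller than the half-width for a typical row and could easily be missed at this depth.

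**Figure D5:**
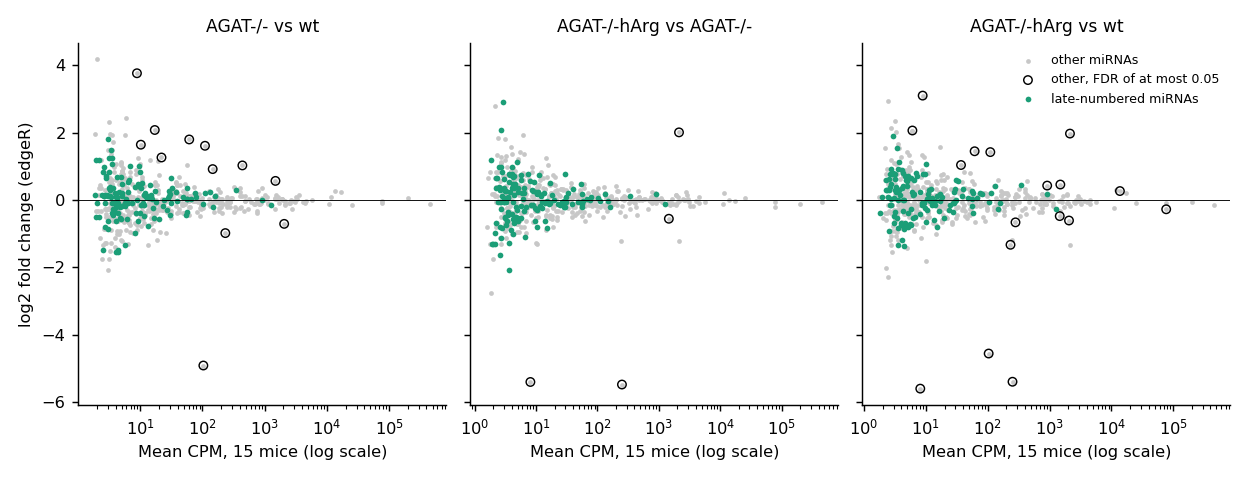
Log2 fold change by edgeR (vertical) against mean CPM over 15 mice (horizontal, log scale) for the 3 comparisons; green points are late-numbered rows, grey points all other rows, and circles the other rows with an FDR of at most 0.05, mir-5119-3p and mir-7688-5p among them in the first panel. No green point is circled, and green points spread widely only at low CPM.

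Summed by position, levels are given without a test, since the rows were chosen by their reads. The 6 mirtrons with both ends at intron ends summed to 1550 ± 30.3 CPM in wt, 1450 ± 165 in AGAT-/- and 1308 ± 108 in AGAT-/-hArg mice. The wt range (1518 to 1600) lay above that of the AGAT-/-hArg mice (1165 to 1436), while AGAT-/- mice (1202 to 1615) covered the wt range. Without mir-7068-3p the sums were 132 to 261, 149 to 269 and 136 to 225 CPM, which overlap. Hairpins with only the 3′ end at an intron end summed to 959 ± 71.5, 988 ± 55.5 and 1018 ± 42.6 CPM, those elsewhere in introns to 644 ± 58.3, 697 ± 13.5 and 708 ± 31.2, and intergenic ones to 1332 ± 162, 1409 ± 77.8 and 1526 ± 162. Those in exons summed to 307 ± 28.0, 274 ± 35.0 and 270 ± 24.2 CPM (SD, n = 5 mice each). Means of the first and the exonic class were lowest, and those of the other 3 classes given here highest, in the AGAT-/-hArg mice, and the ranges of AGAT-/-hArg and wt mice overlapped for each of the 5 classes except the first.

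Mirtrons with low numbers were set beside these rows. Mir-702-3p had 81 reads, mir-877-3p 47, mir-1224-5p 10, mir-1224-3p 3 and mir-702-5p 2, and mir-877-5p was listed at 0. The first 2 were tested, and their FDR was at least 0.674 in all 3 comparisons by edgeR. Since mir-877-5p is the usual major arm of its precursor, these totals were not compared with those of the late-numbered rows.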

How the data were processed

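Counts of miRNA reads from 15 mouse hearts were analysed. The authors mapped reads to miRBase with the CLC Genomics Workbench (GRCm38 per the submitters' processing notes; the miRBase release is not given in the sources used here), and the deposited counts are whole reads per mature arm, without normalization. The handling of reads with several matches is not given in the sources used here. All columns were used, and groups and mouse numbers were taken from the labels.

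Groups were compared pairwise with edgeR 4.0.16 (R 4.3.3) on rows with more than 10 reads over the 10 libraries, using TMM, glmQLFit and glmQLFTest, at an FDR of at most 0.05 over all rows tested. P-values set the difference between groups against the spread between mice, which includes counting error. Libraries of the same group differed beyond sampling noise in each of 30 pairs (chi-square of at least 2.61 per degree of freedom). Fits were tested on simulated data. Arm shares were compared by exact permutation (scipy 1.17.1, Python 3.11.15) for precursors with at least 50 reads, reads on both arms and reads in each library.

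Hairpins were placed by RefSeq (GRCm38.p6) or GENCODE M21, and introns were those of GENCODE M21 transcripts on the same strand. The planned count of exact genome copies of the mature sequences was not run; matches to GENCODE transcripts were counted instead. That measure and the distance from 3p sequences to intron ends were chosen after seeing the data.

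Members and lists were chosen with earlier results of these data known. Named are the 12 rows with the most reads, rows past the FDR, rows with at least 20 reads whose groups did not overlap, precursors with at least 50 reads and reads on both arms, and rows just inside the read threshold, by count. Other rows are named where a small count or a shared seed or structure needed it, after their values were seen. Alternatives were DESeq2 1.42.0, other normalizations and filters, all 15 libraries in 1 fit, summed arms, the 3 most abundant rows left out, an FDR of at most 0.10, mir-5119 and mir-7688 counted too, and leaving out each mouse.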

Additional observations from a re-analysis of the deposited data

Results flagged for a closer look

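In 4 of 45 groups of 5 mice (the 15 named rows in 3 groups), 1 mouse stood apart from the others by Dixon's criterion, which chance gives in about 1 of 20 groups. Mir-7015-3p was at 144 CPM in wt mouse 4, while the other wt mice were between 93.7 and 101 CPM. In AGAT-/- mouse 10, mir-7046-3p was at 64.9 CPM (others 81.3 to 87.6). Mir-6911-3p was at 67.8 CPM in AGAT-/-hArg mouse 15 (others 79.5 to 83.8). Mir-6516-5p was at 30.1 CPM in AGAT-/- mouse 8 (others 55.4 to 64.6). The causes were not tested.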

How the results depend on the processing

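Of 60 alternatives to the 3 counts of called late-numbered rows, 56 also gave 0, leaving out each mouse in turn (lowest 0, highest 0) and an FDR of at most 0.10 included. Counting mir-5119 and mir-7688 gave 2 for AGAT-/- against wt and 1 for AGAT-/-hArg against wt, by construction. For AGAT-/-hArg against wt, DESeq2 gave 1 (mir-7068-3p, log2 fold change -0.26, FDR 0.0478) and testing rows with at least 1 read gave 1 (mir-6412-3p, 0.47, FDR 0.0287); the cause was not tested. Over its alternatives, the FDR of mir-7068-3p in this comparison ran from 0.0478 to 0.514 and that of mir-6412-3p from 0.0287 to 0.287, with the same sign throughout. Of 756 recomputed fold changes of the 15 named rows, 754 stayed on the same side of the threshold. Most had an FDR far above it, so this count says little about stability. The sign changed for some small differences. For AGAT-/-hArg against AGAT-/- it changed in 5 of 17 alternatives each for mir-6911-3p and mir-7043-3p. Precursors with a hairpin end at an intron end numbered 79 and 83 with 0 and 5 bases allowed in place of 3. Arm shares also gave 0 with a minimum of 200 reads and without each mouse, but the exact test on so few mice can hardly pass the threshold after adjustment, so this says nothing about stability. Depth limits most rows: the median late-numbered row had 29.5 reads over 15 libraries. Mouse numbers differ between all groups. No paired analysis was run, because the labels used here give neither pairs nor litters. Litter could therefore not be taken into account.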
